A study of Mus musculus with 13 samples.

Results

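Notch signalling in liver endothelium was followed here through 10 genes: the receptors Notch1, Notch2 and Notch4, the ligands Dll1, Dll4, Jag1 and Jag2, the receptor-modifying enzyme Lfng, and the target genes Hey1 and Hes1. They were picked by gene symbol from a deposited table of 24421 symbols, and all 10 were in the table and passed the filter on low counts. The cells, liver endothelium from wild-type animals, were read out by bulk RNA sequencing of stranded poly(A) libraries. There were 6 libraries from germ-free (GF) mice, which live without a microbiota, and 7 libraries from conventionally raised (CONV-R) mice, which carry one. Both groups are labelled wild type. The labels give no strain, sex or age, no method of isolation and no word on whether each library is a separate animal, so a p-value here reflects only how far libraries of a group differ. Totals ran from 23407168 to 35478115 counts in GF libraries and from 7590320 to 32869515 counts in CONV-R libraries.

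Notch receptors sit in the plasma membrane and are activated by Delta-like (Dll) and Jagged (Jag) ligands on a neighbouring cell. Binding leads to cleavage of the receptor, first by an ADAM protease and then by gamma-secretase, and the freed intracellular domain joins the DNA-binding protein RBPJ to switch on target genes such as those of the Hes and Hey repressor families. Fringe enzymes such as LFNG add sugars to the receptors and shift their response towards Delta-like ligands. In endothelium the pathway separates tip from stalk cells in sprouting vessels and promotes arterial identity, and in the liver it contributes to the differentiation of sinusoidal endothelium.

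Stretches around the start sites of 3 of the genes are shown because they carry the contrast the results turn on: the enzyme with the largest difference between the groups (Lfng), the receptor with the largest increase (Notch4), and a ligand that did not pass the test (Dll4). Each is 300 bases, from 250 bases before to 50 after the RefSeq start site in GRCm38.p6, all on the plus strand. Lfng is at chr5:140607091-140607390, Notch4 at chr17:34564045-34564344 and Dll4 at chr2:119325534-119325833. Capitals mark matches, on either strand, to GTGGGAA (a core bound by RBPJ), CACGTG or CACGCG (sites bound by HES and HEY proteins).
Lfng: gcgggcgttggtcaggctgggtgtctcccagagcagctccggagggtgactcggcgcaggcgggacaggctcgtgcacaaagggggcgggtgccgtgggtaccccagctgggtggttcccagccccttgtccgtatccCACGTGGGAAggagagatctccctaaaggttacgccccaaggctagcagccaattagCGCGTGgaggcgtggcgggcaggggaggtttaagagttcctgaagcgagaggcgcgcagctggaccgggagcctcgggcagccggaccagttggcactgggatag
Notch4: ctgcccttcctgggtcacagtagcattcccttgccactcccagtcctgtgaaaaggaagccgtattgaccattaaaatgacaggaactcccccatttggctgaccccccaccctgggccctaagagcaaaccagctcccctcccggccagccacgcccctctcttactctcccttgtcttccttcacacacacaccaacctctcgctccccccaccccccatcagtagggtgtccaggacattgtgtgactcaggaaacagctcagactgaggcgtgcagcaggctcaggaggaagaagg
Dll4: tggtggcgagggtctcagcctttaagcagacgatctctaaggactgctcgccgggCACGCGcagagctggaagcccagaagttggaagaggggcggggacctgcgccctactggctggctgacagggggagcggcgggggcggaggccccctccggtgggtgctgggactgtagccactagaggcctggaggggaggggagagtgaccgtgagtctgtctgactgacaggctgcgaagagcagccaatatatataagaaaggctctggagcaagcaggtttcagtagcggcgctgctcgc
The Lfng window held GTGGGAA 109 bases before the start site, overlapping a CACGTG that begins 112 bases before it, and a CACGCG on the minus strand 55 bases before it. The Notch4 window held none of the 3 motifs, and the Dll4 window held a single CACGCG, 195 bases before the start site. RefSeq windows were found for 8 of the 10 genes, namely Notch1, Notch2, Notch4, Dll1, Dll4, Jag1, Jag2 and Lfng, in 9 windows because Dll1 has 2 start sites. Among these 9 windows GTGGGAA and CACGTG occurred in that of Lfng alone. CACGCG also occurred in the windows of Notch2, Jag1 and Jag2 and at 1 of the Dll1 start sites. Over all 32851 RefSeq windows of this length, 6.38% held GTGGGAA, 7.15% CACGTG and 9.27% CACGCG. A match describes the letters of a window and says nothing of binding.

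The libraries differed in the levels of cell type markers. Summed pan-endothelial markers (8 genes) lay between 11235 and 12407 CPM (counts scaled to library size) in GF libraries, against 6364 CPM in CONV-R 1 and 8410 to 12093 CPM in the other CONV-R libraries. Sinusoidal markers (10 genes) summed to 35410 to 39072 CPM in GF and 18371 to 33159 CPM in CONV-R libraries. Hepatocyte markers summed to 628 to 974 CPM in GF and 1057 to 6198 CPM in CONV-R libraries, and 10 of the 11 tested were lower in GF. Neutrophil and monocyte markers summed to 472 to 685 CPM in GF and 618 to 2698 CPM in CONV-R libraries, with 7 of 8 lower in GF, and B cell markers to 25.4 to 44.6 CPM in GF and 60.5 to 1571 CPM in CONV-R libraries, with 6 of 7 lower. Cholangiocyte markers went the other way, at 166 to 403 CPM in GF and 53.4 to 274 CPM in CONV-R libraries, with 6 of 10 higher in GF. Kupffer cell markers summed to 1858 to 2953 CPM in GF and 1799 to 5820 CPM in CONV-R libraries, with 0 of 8 higher or lower. Stellate and smooth muscle markers summed to 30.5 to 440 CPM in GF and 25.0 to 79.3 CPM in CONV-R libraries. The 440 CPM was that of GF 11, and of 9 tested 1 was higher and 1 lower. T and NK cell markers summed to 23.4 to 68.3 CPM in GF and 21.2 to 201 CPM in CONV-R libraries, with 0 of 7 higher or lower. No marker of these lists was at 0 in every library. In bulk RNA, fewer cells of a type and less RNA per cell cannot be told apart. Library names also carry a code number, whose meaning is not stated: 6 for all GF libraries, 10 for CONV-R 1 to 4 and 9 for CONV-R 5 to 7. No number occurs in both groups, so it cannot be told apart from the group.

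In GF libraries 2 of the 3 receptors (Notch1 and Notch4), the ligand Dll1 and the fringe enzyme Lfng rose, and the receptor Notch2 fell. Dll4, Jag1, Jag2, Hey1 and Hes1 did not pass the test. That is 4 of 10 genes higher and 1 of 10 lower by edgeR's quasi-likelihood test at a Benjamini-Hochberg adjusted p under 0.05. Across all 13915 genes tested, 11.4% were higher and 12.7% lower in GF, 24.1% in all. The 10 genes had a median log2 fold change of 0.31, against -0.01 over all genes tested. For the same 4 genes that rose, every GF library stood above every CONV-R library, which held for 5.94% of all genes tested. No gene of the 10 had every GF library below every CONV-R library, a pattern seen in 4.32% of all genes. The 10 genes were chosen with earlier results of these data known, so these comparisons with all genes describe the list and test nothing. Every level below is in CPM of the TMM-scaled library, and every log2 fold change is GF over CONV-R.

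**Figure D1:**
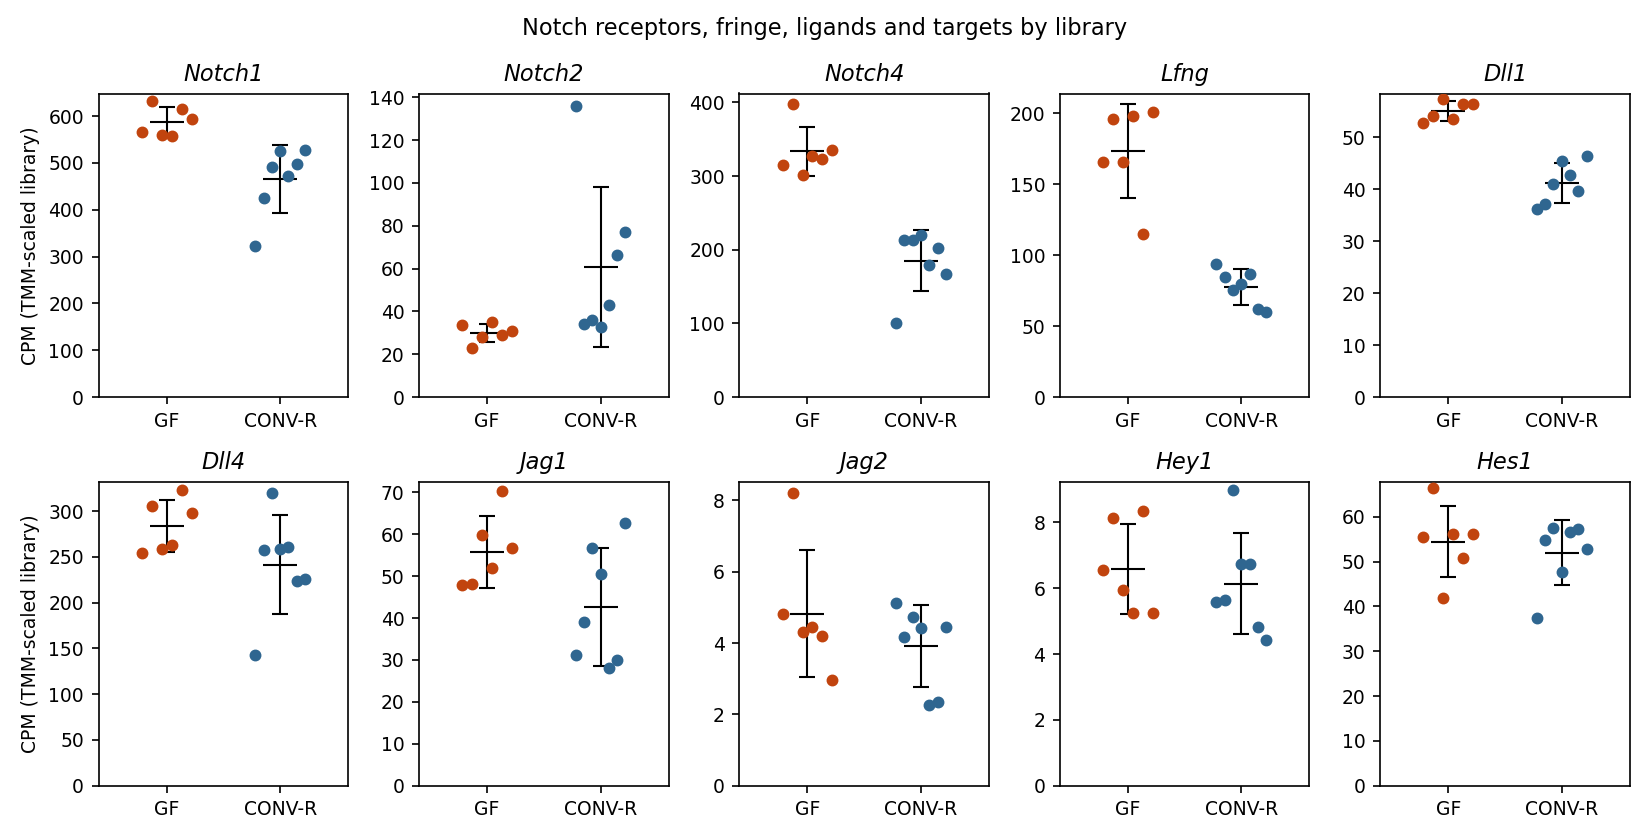
Level of the 10 genes in each library, in CPM of the TMM-scaled library on a separate linear axis per gene, with GF on the left (n = 6) and CONV-R on the right (n = 7). Points are libraries and bars are mean ± SD. The GF points of Notch1, Notch4, Dll1 and Lfng all lie above the CONV-R points, and the CONV-R points of Notch2 spread from 32.8 to 136 CPM.

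Lfng (plus strand of chr5:140607320-140615545 in GRCm38), the fringe that extends O-fucose on Notch, had the largest rise of the 10. Its lowest, median and highest levels were 115, 181 and 201 CPM in GF libraries, against 59.9, 79.8 and 93.6 CPM in CONV-R libraries. The groups did not overlap, and GF 12 was the lowest GF library. Lfng was 2.24-fold higher in GF, a log2 fold change of 1.16 ± 0.14 (SE; adjusted p = 1.37e-04 by edgeR). It stayed past the threshold in each of the 13 fits that left out a single library, with log2 fold changes of 1.10 to 1.25. With the hepatocyte marker level as a covariate it was the only gene of the 10 still past the threshold, at 1.20 ± 0.23 (adjusted p = 0.0154), where 1.90% of all genes were higher.

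Notch4 (plus strand of chr17:34564268-34588503), a receptor found mainly in endothelium, had 302, 326 and 397 CPM as lowest, median and highest in GF libraries, against 100.98, 202 and 220 CPM in CONV-R libraries. All 6 GF libraries were above the highest CONV-R library, and CONV-R 1 was the lowest of all. The receptor was 1.80-fold higher in GF (log2 fold change 0.85 ± 0.15, adjusted p = 0.00205 by edgeR). Against CONV-R libraries of code number 10 alone its log2 fold change was 0.84, and against those of code number 9 alone it was 0.85. Without CONV-R 1 it was 0.73 ± 0.08. Notch4 did not pass with any of the 3 marker covariates: it was at 0.34 ± 0.17 with hepatocyte markers (adjusted p = 0.327), 0.65 ± 0.19 with cholangiocyte markers (adjusted p = 0.102) and 0.69 ± 0.21 with neutrophil and monocyte markers (adjusted p = 0.0950), by edgeR. Most genes lost their call in these fits. Of all genes, 24.1% were called without a covariate, and 3.40%, 2.82% and 3.38% with these 3 in that order. The hepatocyte sums of the groups did not overlap, so that covariate largely follows the group. The cause of a call lost with a covariate, here or below, was not tested.

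Notch1 (minus strand of chr2:26457903-26516663), the receptor that carries most Delta-like signalling in sprouting endothelium, was the most abundant of the 10 in CPM. GF libraries had 558, 580 and 633 CPM as lowest, median and highest, against 322, 491 and 527 CPM in CONV-R libraries. The groups did not overlap, and the lowest level was again that of CONV-R 1. Notch1 was 1.26-fold higher in GF (log2 fold change 0.33 ± 0.10, adjusted p = 0.0304 by edgeR). The call was lost in 8 of the 13 fits that left out a library, namely CONV-R 2, 5 or 6 or GF 8, 9, 10, 12 or 13, in which edgeR's adjusted p reached at most 0.0819 and the log2 fold change over all 13 fits was 0.25 to 0.37. It was also lost against code number 10 alone (0.41, adjusted p = 0.0524), with library totals (0.24, adjusted p = 0.0711), and with the hepatocyte (0.13, adjusted p = 0.709), cholangiocyte (0.31, adjusted p = 0.344) and neutrophil and monocyte (0.36, adjusted p = 0.216) covariates, by edgeR.

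Notch2 (plus strand of chr3:98013527-98150361), a receptor also known for its part in bile duct formation and in marginal zone B cells, went the opposite way. GF libraries had 23.0, 29.9 and 35.3 CPM as lowest, median and highest, against 32.8, 43.1 and 136 CPM in CONV-R libraries. The 136 CPM of CONV-R 1, the library with the highest B cell and hepatocyte marker sums, stood apart, followed by 77.2 CPM in CONV-R 7 and 66.2 CPM in CONV-R 6. CONV-R 2, 3 and 4, whose pan-endothelial sums of 11019 to 12093 CPM lay close to those of GF libraries, had 34.3, 36.1 and 32.8 CPM of Notch2, inside or just above the GF range. Notch2 was 2.02-fold lower in GF (log2 fold change -1.02 ± 0.31, adjusted p = 0.0313 by edgeR). Without CONV-R 1 the difference was -0.69 ± 0.22, the smallest of the fits that left out a library. The call was lost without CONV-R 6 or 7 or without GF 9, 10, 12 or 13, where edgeR's adjusted p reached at most 0.0689. Without CONV-R 1 and 7, the libraries with the lowest pan-endothelial sums, it was -0.49 and did not pass (adjusted p = 0.0686 by edgeR), a comparison added after the data were seen. With the hepatocyte covariate the sign turned, at 0.20 ± 0.32. The part of B cells, hepatocytes or myeloid cells in the Notch2 level was not tested.

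**Figure D2:**
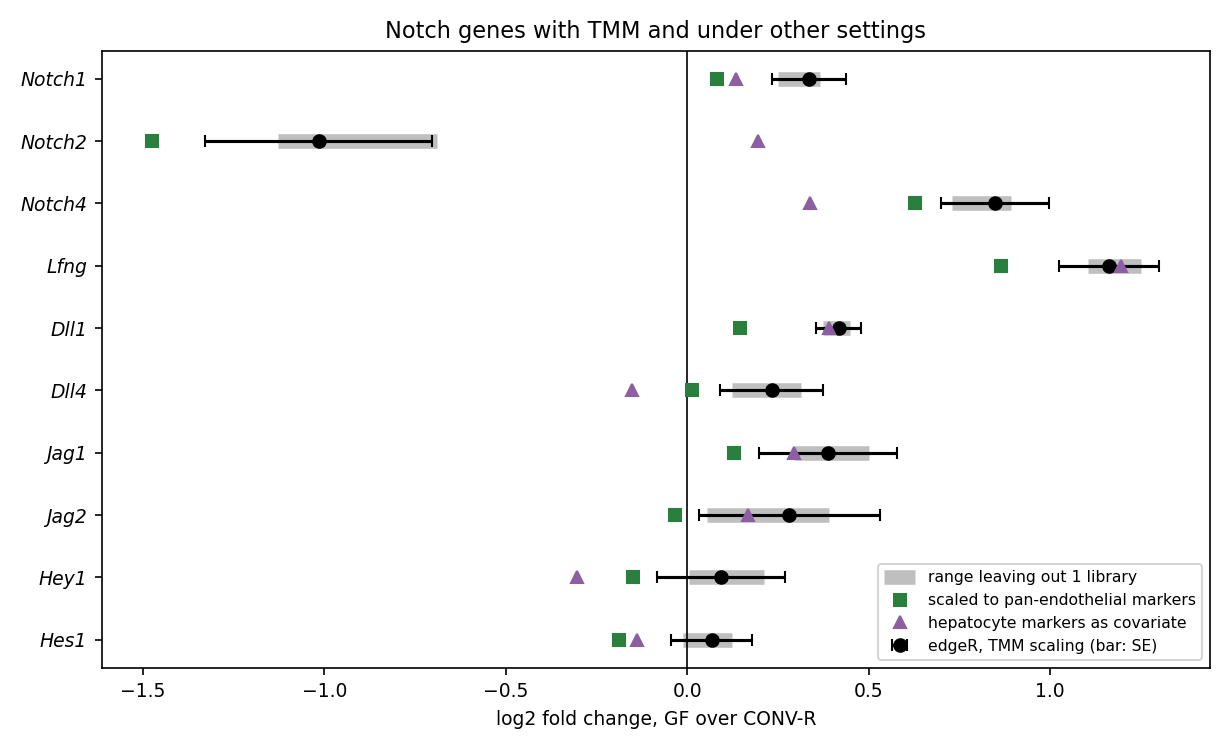
Log2 fold change, GF over CONV-R, of each of the 10 genes by edgeR with TMM scaling (black, bar SE), with the range over fits that leave out a single library (grey), with pan-endothelial marker scaling (green) and with the hepatocyte markers as covariate (purple). Lfng lies furthest to the high side in each setting drawn, and Notch2 lies on the low side except with the hepatocyte covariate, where it is at 0.20.

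Among the ligands, Dll1 (minus strand of chr17:15367354-15376872) was the least variable of the 10 genes. It had 52.8, 55.3 and 57.4 CPM as lowest, median and highest in GF libraries, against 36.2, 41.1 and 46.5 CPM in CONV-R libraries. The groups were separated, and the coefficient of variation was 3.40% in GF and 9.40% in CONV-R libraries. Dll1 was 1.34-fold higher in GF (log2 fold change 0.42 ± 0.06, adjusted p = 7.56e-04 by edgeR) and kept the call in all 13 fits without a library, at 0.37 to 0.45. It kept the call with the cholangiocyte covariate, at 0.43 (adjusted p = 0.0267), and with the neutrophil and monocyte covariate, at 0.45 (adjusted p = 0.0161), and missed it with the hepatocyte covariate, at 0.39 (adjusted p = 0.0542 by edgeR).

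Dll4 (plus strand of chr2:119325784-119335962), the main Delta-like ligand of sprouting vessels, had 254, 281 and 323 CPM in GF libraries as lowest, median and highest, against 142, 258 and 320 CPM in CONV-R libraries. The groups overlapped, with CONV-R 1 apart at the low end. The log2 fold change was 0.23 ± 0.14 (adjusted p = 0.240 by edgeR), with a 95% confidence interval of -0.07 to 0.54.

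Jag1 (minus strand of chr2:137081456-137116644), the Jagged ligand whose loss of function causes the bile duct paucity of Alagille syndrome in humans, had 47.9, 54.3 and 70.4 CPM in GF libraries, against 28.0, 39.1 and 62.7 CPM in CONV-R libraries. Both groups spread widely and overlapped. The log2 fold change was 0.39 ± 0.19 (adjusted p = 0.148 by edgeR), with an interval of -0.02 to 0.79, and it was 0.08 with the cholangiocyte covariate. Jag2 (minus strand of chr12:112907819-112929776), the scarcest ligand, had 2.95, 4.38 and 8.22 CPM in GF libraries, against 2.25, 4.42 and 5.12 CPM in CONV-R libraries. The 8.22 CPM belonged to GF 9, and the remaining GF libraries lay inside the CONV-R range. Its log2 fold change was 0.28 ± 0.25 (adjusted p = 0.422 by edgeR), with an interval of -0.25 to 0.82.

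The classical target genes did not pass the test. Hes1 (plus strand of chr16:30064384-30067796), a repressor induced by Notch in many tissues, had 42.0, 55.8 and 66.3 CPM in GF libraries, against 37.5, 54.9 and 57.6 CPM in CONV-R libraries. The ranges overlapped, with GF 9 above every CONV-R library and CONV-R 1 below every GF library. The log2 fold change was 0.07 ± 0.11 (adjusted p = 0.698 by edgeR), with a 95% confidence interval of -0.17 to 0.31. Hey1 (minus strand of chr3:8663359-8667256), a repressor linked to endothelial Notch signalling, had 5.25, 6.25 and 8.35 CPM in GF libraries, against 4.44, 5.64 and 9.00 CPM in CONV-R libraries. The GF libraries lay inside the CONV-R range, and the log2 fold change was 0.09 ± 0.18 (adjusted p = 0.737 by edgeR), with an interval of -0.29 to 0.47. The sign of both genes depended on the scaling: with library totals Hes1 was at -0.03 and Hey1 at -0.0010, and with pan-endothelial marker scaling at -0.19 and -0.15.

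Levels can be compared between genes per kilobase of annotated exon, with the limit that the length counts the exons of every annotated transcript. For Notch1 it was 14.232 kilobases, over a gene that begins at 26516663, upstream of its RefSeq window at chr2:26503773-26504072. Exons that these cells do not use would make a level per kilobase too low, which was not tested. In GF libraries the order of mean CPM per kilobase was Dll4 at 73.7 ± 7.47 (SD), Lfng at 69.3 ± 13.2, Notch4 at 41.4 ± 4.13, Notch1 at 41.3 ± 2.21, Hes1 at 26.8 ± 3.91, Dll1 at 13.1 ± 0.44, Jag1 at 9.57 ± 1.47, Notch2 at 2.78 ± 0.41, Hey1 at 2.02 ± 0.42 and Jag2 at 0.69 ± 0.26. In CONV-R libraries it was Dll4 at 62.7 ± 14.0, Notch1 at 32.7 ± 5.06, Lfng at 30.9 ± 5.04, Hes1 at 25.6 ± 3.58, Notch4 at 23.0 ± 5.18, Dll1 at 9.78 ± 0.92, Jag1 at 7.31 ± 2.41, Notch2 at 5.64 ± 3.47, Hey1 at 1.88 ± 0.47 and Jag2 at 0.56 ± 0.17. Dll4 and Lfng, and Notch4 and Notch1, differed by less than the larger of their SDs in GF libraries. In CONV-R libraries Notch1 and Lfng, Hes1 and Notch4, and Jag1 and Notch2 did so. Notch3, the receptor of mural cells, was at 0.22 ± 0.05 CPM per kilobase in GF and 0.28 ± 0.10 in CONV-R libraries.

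**Figure D3:**
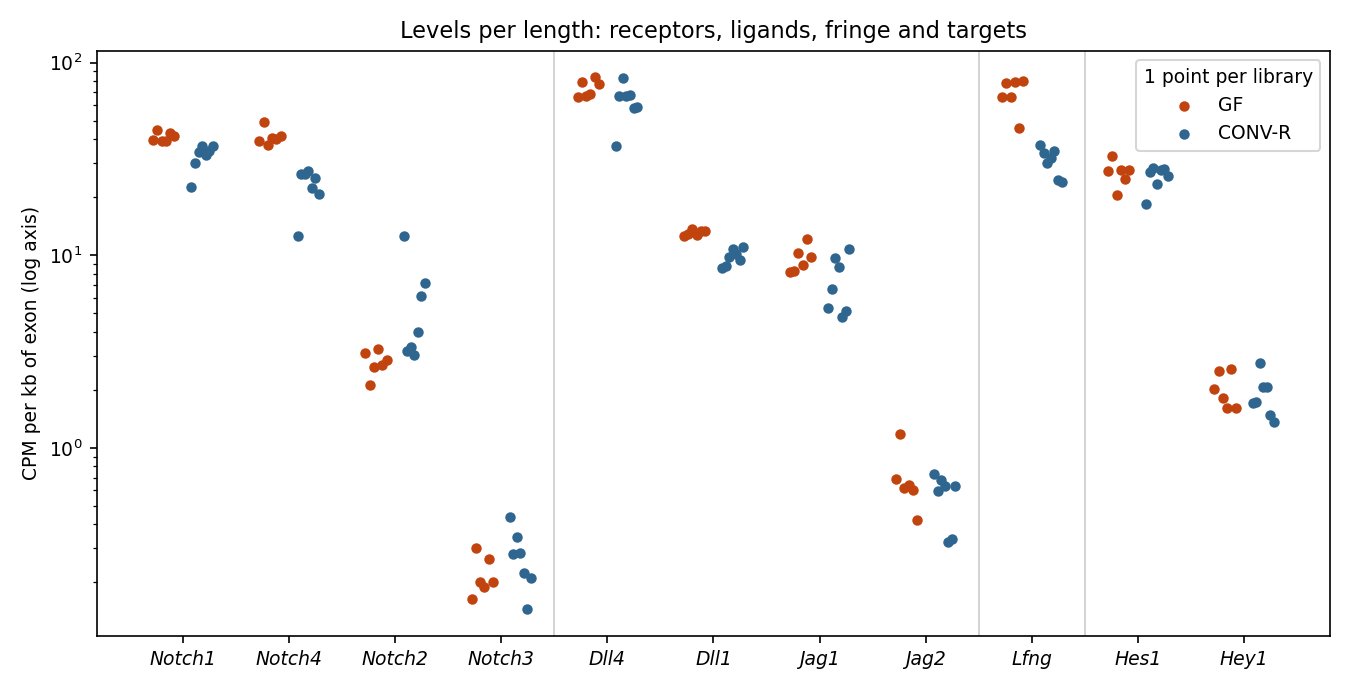
Level of the 10 genes and Notch3 in each library, in CPM per kilobase of annotated exon on a log axis, GF (n = 6) left of CONV-R (n = 7) and grouped by role. Mean Dll4 is highest in both groups (73.7 in GF, 62.7 in CONV-R), mean Notch4 is close to Notch1 in GF (41.4 and 41.3), and Notch3 lies lowest.

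The make-up of the receptor pool can be read within each library and so does not depend on the scaling between libraries. It does depend on the exon lengths, which are the same for both groups. The shares and ratios below therefore serve to compare the groups rather than to rank the genes. Of the summed per-kilobase level of Notch1 to Notch4, Notch4 made up 48.2% ± 1.68 in GF libraries (46.5% to 51.2%) and 36.9% ± 6.15 in CONV-R libraries (26.0% to 44.2%), so that every GF library was above every CONV-R library. The Notch4 level divided by the Notch1 level was 1.002 ± 0.064 in GF and 0.70 ± 0.12 in CONV-R libraries, with ranges of 0.93 to 1.11 and 0.55 to 0.88. The Notch2 share was 3.28% in GF and 9.73% in CONV-R libraries, where it was 26.2% in CONV-R 1 and 4.51% to 11.0% in the others. Of the summed ligand level, Dll4 made up 75.9% in GF and 77.6% in CONV-R libraries, and the ranges overlapped. The Lfng level per Notch1 level was 1.69 ± 0.33 in GF and 0.99 ± 0.34 in CONV-R libraries. All but 1 GF library lay above CONV-R 1, which was at 1.65, and the other CONV-R libraries were at 0.65 to 1.13.

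Because the groups differed in the endothelial marker sum, levels were also set against it, a view added after the data were seen. Per 1000 CPM of pan-endothelial markers, Notch4 had 26.9 to 32.0 CPM in GF libraries and 15.9 to 20.2 CPM in CONV-R libraries, so this separation remained with CONV-R 1 included. Lfng had 9.95 to 17.6 CPM in GF libraries, against 14.7 CPM in CONV-R 1 and 6.18 to 8.07 CPM in the other CONV-R libraries. Notch1 had 45.9 to 53.3 CPM in GF and 38.7 to 62.7 CPM in CONV-R libraries, an overlap over the whole GF range. With libraries scaled by these markers the median of all genes moved to -0.29, and 2.68% of all genes were higher and 16.5% lower. On that scale Notch4 (log2 fold change 0.63, adjusted p = 3.89e-04) and Lfng (0.86, adjusted p = 0.0120) were still higher, by edgeR. Notch2 passed as lower, at -1.47 (adjusted p = 0.0342 by edgeR). This scaling raises all levels in libraries with a low marker sum, such as CONV-R 1, where Notch2 was highest. The fit therefore cannot test the Notch2 difference apart from the marker sum. Notch1, at 0.08 (adjusted p = 0.533), and Dll1, at 0.14 (adjusted p = 0.398), did not pass.

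**Figure D4:**
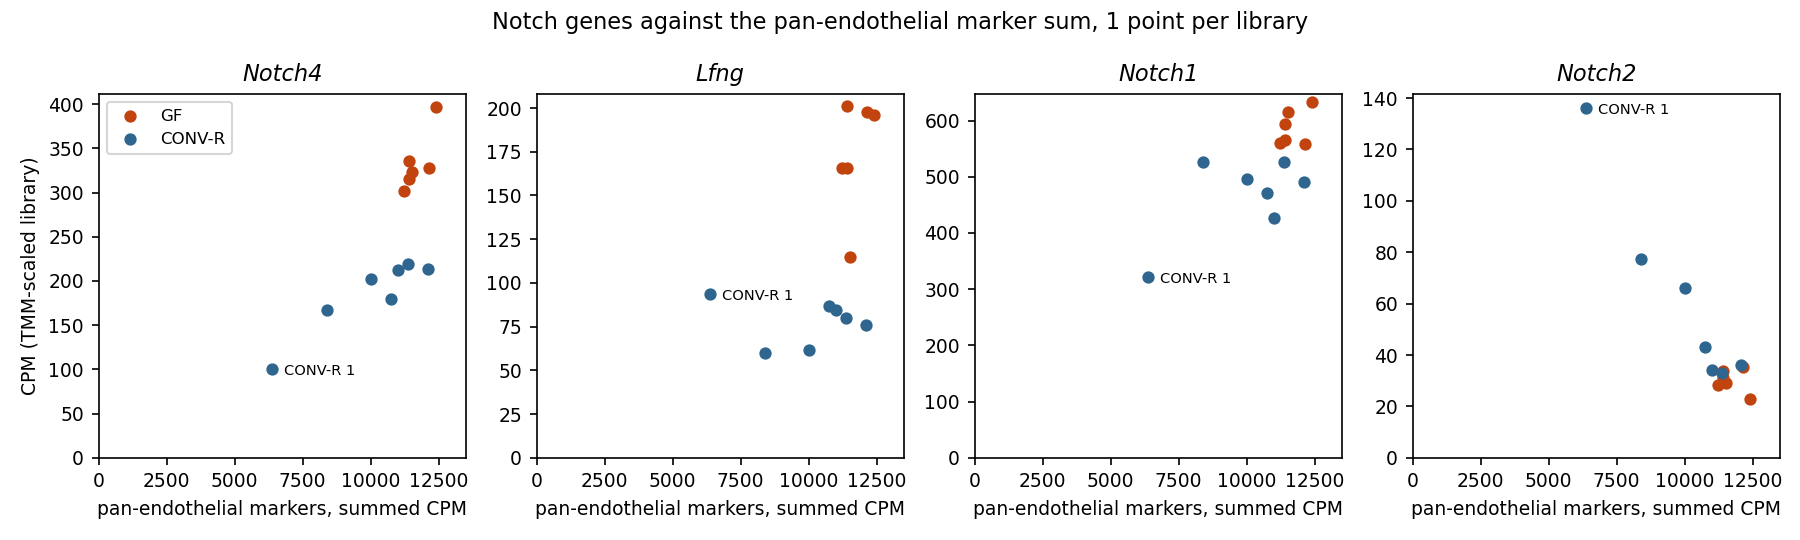
Level in CPM of Notch4, Lfng, Notch1 and Notch2 in each library (vertical axes) against the summed CPM of 8 pan-endothelial markers (horizontal axis), with GF in orange and CONV-R in blue. The GF points of Notch4 (302 CPM or more) and Lfng (115 CPM or more) lie above all CONV-R points. Notch2 is highest in CONV-R 1, where the sum is 6364 CPM.

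Around these 10 genes, a list of 64 further pathway genes, also chosen with earlier results known, was read out, of which 57 passed the filter. By edgeR 15 (26.3%) were higher and 4 (7.02%) lower in GF, beside 11.4% and 12.7% of all genes, with a median log2 fold change of 0.09 and with every GF library above every CONV-R library for 9 genes and below for 2, patterns seen in 5.94% and 4.32% of all genes. With the hepatocyte covariate 2 of the 57, Tle1 and Aph1b, were higher and 0 lower. The 7 genes that did not pass the filter were Dll3, Dlk1, Dlk2, Dner, Hes5, Hes7 and Hey2. Among other receptors and ligands, neither Notch3 (-0.34, adjusted p = 0.297) nor the secreted modulator Egfl7, also among the 8 pan-endothelial markers (0.22, adjusted p = 0.201) passed. None of the 4 glycosylation genes passed, with Mfng at 0.15 and Rfng, the other fringes, at -0.24.

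Of the 8 genes grouped here under ligand ubiquitination and endocytosis, the E3 ligase Mib1 rose (log2 fold change 0.45 ± 0.11, adjusted p = 0.0107), with 74.9 to 93.4 CPM in GF and 45.8 to 75.5 CPM in CONV-R libraries. Neurl3 fell (-0.57 ± 0.14, adjusted p = 0.0133) and the endocytic adaptor Epn1 fell (-0.15 ± 0.05, adjusted p = 0.0356), a call lost in 5 of 13 fits, without CONV-R 4 or GF 8, 11, 12 or 13 (adjusted p up to 0.0765 by edgeR). Of the 10 cleavage genes 5 rose and 0 fell, beside 11.4% and 12.7% of all genes. They were the protease Adam10 (0.28), the convertase Furin (0.13), and the gamma-secretase components Ncstn (0.29), Psen2 (0.23) and Aph1b (0.95, adjusted p = 3.14e-04). Furin lost the call in 12 of the 13 fits that left out a library, all but that without CONV-R 3, with edgeR's adjusted p up to 0.106. It also lost the call with limma-voom (adjusted p = 0.0599) and with either code number alone. By edgeR the same held with size factors from DESeq2 (adjusted p = 0.0603) and with library totals (adjusted p = 0.555). So it did with no filter (adjusted p = 0.0774) and with a mean of at least 1 CPM (adjusted p = 0.0634). Adam10 lost it in 10 of 13 fits, all but those without CONV-R 2, 3 or 4 (adjusted p up to 0.0772 by edgeR), and Ncstn in 3 of 13, without CONV-R 6, GF 9 or GF 11 (up to 0.0562). Psen2 and Aph1b kept it in all 13. Aph1b was the only one of the 5 to keep it with the hepatocyte, cholangiocyte or neutrophil and monocyte covariate. Psen2 lost it with library totals (adjusted p = 0.0964) and against code number 9 alone (adjusted p = 0.0904), by edgeR. With library totals Adam10 (adjusted p = 0.0817) and Ncstn (adjusted p = 0.0577) lost it too, by edgeR. Against code number 10 alone Adam10 was at an adjusted p of 0.147 and Ncstn at 0.114, by edgeR. Aph1b has a near-identical copy, Aph1c, at -0.33 (adjusted p = 0.239), so the split of reads between them is uncertain. Adam10 was at -7.5e-04 with the hepatocyte covariate, and with pan-endothelial scaling Furin (-0.15) and Psen2 (-0.05) changed sign.

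Of the 17 nuclear genes 4 rose and 0 fell, beside 11.4% and 12.7% of all genes. The largest change was that of Tle1, a Groucho-family corepressor, with 157, 227 and 270 CPM as lowest, median and highest in GF libraries, against 66.1, 68.8 and 99.3 CPM in CONV-R libraries. The groups were well apart, GF 12 again being the lowest GF library. Tle1 was 2.94-fold higher (1.55 ± 0.13, adjusted p = 1.18e-05 by edgeR), and 1.67 with the hepatocyte covariate (adjusted p = 0.00206) and 1.25 with pan-endothelial scaling. The other members of its family, Tle2 (-0.06), Tle3 (-0.12) and Tle4 (-0.02), did not pass. The histone demethylase Kdm5a (0.41) and the RBPJ-interacting Cir1 (0.35) rose less. Rbpj itself was at 0.10 ± 0.06 (adjusted p = 0.260), and none of Maml1, Maml2 and Maml3, the coactivators, passed.

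Of the 9 genes grouped here under restraint 3 rose and 1 fell, beside 11.4% and 12.7% of all genes. Whether each of them restrains Notch in these cells was not tested. Nrarp, a Notch-induced feedback inhibitor, had 55.9, 67.6 and 102 CPM as lowest, median and highest in GF libraries, against 16.8, 44.1 and 54.2 CPM in CONV-R libraries. The groups did not overlap but were close, and CONV-R 1 and CONV-R 7 were the lowest. Its log2 fold change was 0.87 ± 0.25 (adjusted p = 0.0220 by edgeR), 0.60 without CONV-R 1 and 7 (adjusted p = 0.0124) and 0.15 with the hepatocyte covariate (adjusted p = 0.879). Without GF 9 it did not pass (adjusted p = 0.0619 by edgeR). Nor did it against code number 9 alone (adjusted p = 0.0641 by edgeR). With the cholangiocyte covariate its adjusted p was 0.287, and with the neutrophil and monocyte covariate 0.347, by edgeR. Numb (0.34) and the E3 ligase Itch (0.31) also rose, with Numb short of the threshold without GF 9 (adjusted p = 0.0563 by edgeR). Numb also missed it against code number 10 alone (adjusted p = 0.0507), and Itch with library totals (adjusted p = 0.0709), by edgeR. Neither passed with any of the 3 marker covariates. Dtx3, a Deltex-family gene, fell, with 20.2 to 34.7 CPM in GF and 48.2 to 90.9 CPM in CONV-R libraries (-1.26 ± 0.17, adjusted p = 4.52e-04 by edgeR).

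Of the 7 further target genes tested 2 rose and 1 fell, beside 11.4% and 12.7% of all genes. Efnb2, an arterial ephrin, had 154, 187 and 201 CPM as lowest, median and highest in GF libraries, against 74.3, 106 and 158 CPM in CONV-R libraries (0.67 ± 0.14, adjusted p = 0.00543 by edgeR). Gja4, an arterial connexin, had 118, 213 and 276 CPM in GF libraries, against 98.4, 118 and 161 CPM in CONV-R libraries (0.78 ± 0.17, adjusted p = 0.00694). In both genes 5 of 6 GF libraries were above every CONV-R library, and the GF 12 level of Gja4 lay within the CONV-R range. Myc, a growth regulator that Notch induces in T cells, fell, with 3.93 to 5.38 CPM in GF and 6.29 to 23.1 CPM in CONV-R libraries (-1.39 ± 0.28, adjusted p = 0.00396 by edgeR). With the hepatocyte covariate Efnb2 was at 0.14 (adjusted p = 0.649), Gja4 at 0.83 (adjusted p = 0.168) and Myc at -0.35 (adjusted p = 0.558), so none of the 3 passed. Efnb2 also missed the threshold against code number 10 alone (0.56, adjusted p = 0.0551), and Gja4 against code number 9 alone (0.55, adjusted p = 0.0866) and with pan-endothelial scaling (0.50, adjusted p = 0.0829), by edgeR. Neither the arterial gap junction gene Gja5 (0.40), nor Sox17 (0.01), nor Heyl (-0.06) passed, and the sign of Heyl turned when CONV-R 2, CONV-R 3 or GF 13 was left out. Of 9 tested arterial and periportal endothelial markers, a list that shares Efnb2, Gja4, Gja5 and Sox17 with the targets, 4 were higher in GF, beside 11.4% of all genes. Their sums were 3215 to 3546 CPM in GF and 1755 to 2659 CPM in CONV-R libraries. The rise was not particular to this list. Of 8 central vein markers 5 were higher, with sums of 2571 to 3336 CPM in GF and 1359 to 2241 CPM in CONV-R libraries. So were 6 of 10 sinusoidal and 3 of 8 pan-endothelial markers.

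**Figure D5:**
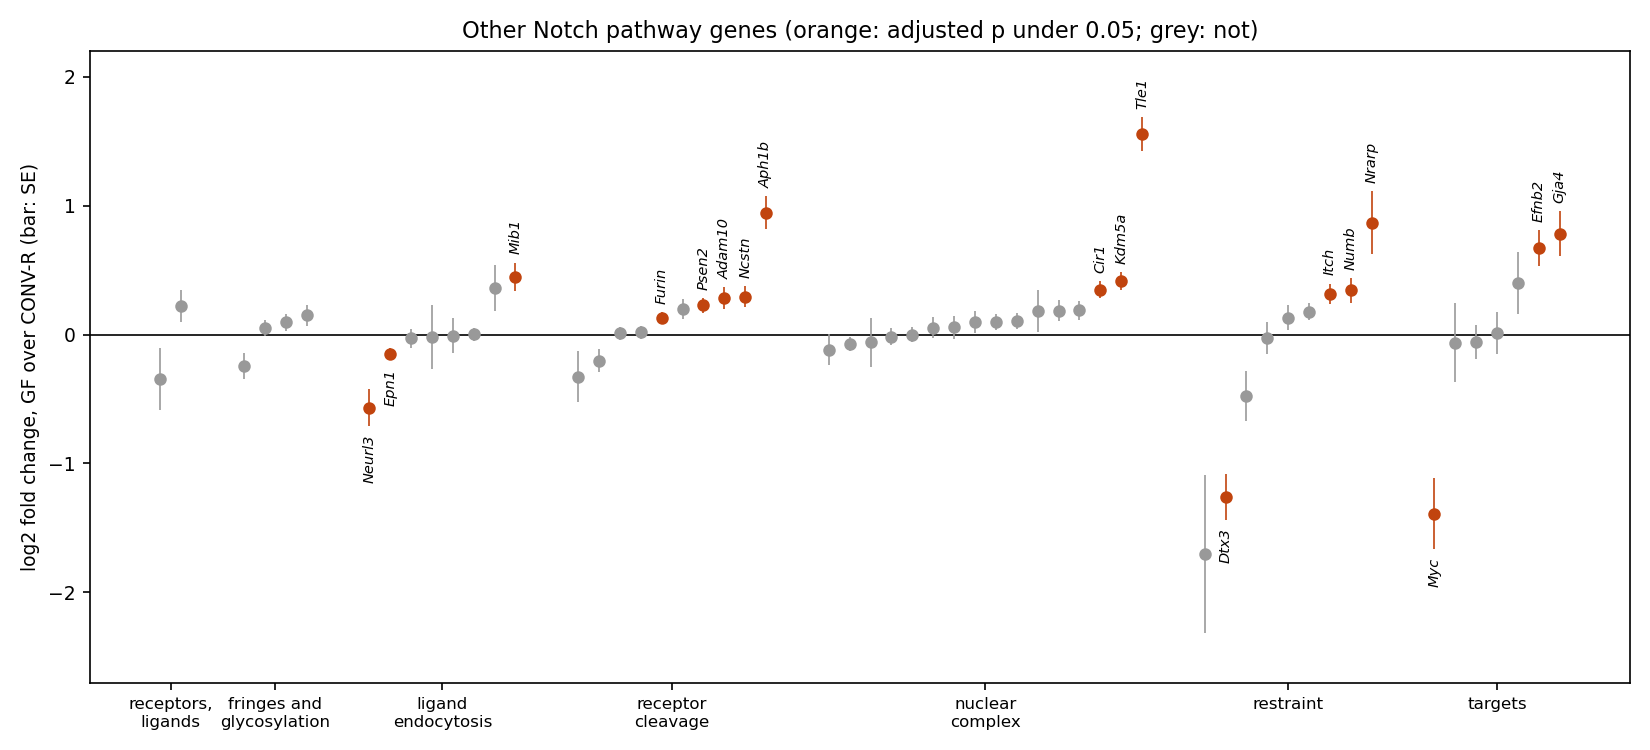
Log2 fold change, GF over CONV-R, with SE (bars) of the further pathway genes tested, all but 1 of the 57, grouped by role. Orange points passed an adjusted p under 0.05 by edgeR and are named, and grey points did not. Tle1 at 1.55 and Aph1b at 0.95 are highest, and Myc at -1.39 and Dtx3 at -1.26 are the lowest named genes.

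For each of the 5 genes that passed, the genes most like it over the 13 libraries were found by the root mean square difference of centred log2 CPM, among 12350 genes. Closest to Notch1 was Trio (0.067), closest to Notch4 was Wdr59 (0.11), closest to Dll1 was Fam214b (0.068), closest to Notch2 was Celf2 (0.11) and closest to Lfng was Arl4d (0.16). Next in order were Polk and Camsap2 for Notch1, Ttll7 and Apbb2 for Notch4, Polr3f and Calml4 for Dll1, Fgd3 and E2f2 for Notch2, and Pnp and Tsc22d1 for Lfng. Wdr59 shared the low CONV-R 1 library of Notch4, with 157 to 198 CPM in GF libraries and 62.8 CPM in CONV-R 1. Celf2 shared the CONV-R 1 peak of Notch2, with 17.0 to 27.9 CPM in GF libraries and a highest level of 89.9 CPM in CONV-R libraries. Arl4d shared the low GF library of Lfng, with a lowest, median and highest GF level of 57.3, 93.2 and 107.2 CPM, against 38.1, 47.6 and 53.3 CPM in CONV-R libraries.

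The strand setting of the authors' counting is not given in the sources used here. Notch1, Notch4, Dll1 and Dll4 overlap annotated genes on the opposite strand, so reads of such pairs cannot be told apart if counting ignored strand. Notch2 overlaps Gm42819 and Gm42820 on its own strand, and Notch1 and Jag2 each overlap a microRNA gene on theirs. Reads in such overlaps can be lost whatever the strand setting. Whether this lowered the per-kilobase levels of these genes was not tested. The parts of cell composition and of the library code in the differences above were not tested beyond the values given.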

How the data were processed

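The 10 genes and the pathway and marker lists were chosen with earlier results of these data known. Per the labels' protocols, stranded poly(A) libraries were sequenced on 1 type of Illumina instrument. The authors deposited raw counts for each gene symbol and library. The submitters' processing notes name STAR 2.7.5a, featureCounts 2.0.1 (Subread), FastQC 0.11.9, DESeq2 1.42.1 and the build mm10. Annotation, strand setting and handling of multi-mapping reads were not given in the sources used here, so genes with near-identical copies or antisense partners can share or lose reads. Groups came from the labels.

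In R 4.3.3, edgeR 4.0.16 was run on the deposited counts with filterByExpr (at least 10 counts, total at least 15), TMM scaling and a robust quasi-likelihood fit of group over all 13 libraries, with Benjamini-Hochberg adjustment over 13915 genes and a threshold of 0.05. Standard errors were obtained from the log2 fold change and its F statistic. At depths of 7590320 to 35478115 counts, counting errors of abundant genes are small beside a common biological coefficient of variation of 0.264. They are not small for Jag2, Hey1, Notch3 and Heyl, whose lowest counts in a library were 18, 37, 9 and 7. Shares and ratios between genes use union exon lengths from GENCODE on GRCm38, the same build as mm10, and start-site windows come from RefSeq. The procedure was tested on simulated counts. Named genes are the 10 genes, pathway genes past the threshold, Notch3, Rbpj, Mfng, Rfng, Nrarp, Hey2 and Heyl whatever their result, and for each of the 10 that passed the 3 genes with the closest pattern (log2 CPM with a pseudocount of 1, mean of at least 1 CPM, predicted genes and clones left out). A single pathway gene is counted in its list but is otherwise not reported here. Pathway genes outside this rule are named for completeness of their families. The alternatives were DESeq2 1.42.0, limma-voom weighted by sample quality (limma 3.58.1), scaling by library totals or by size factors from DESeq2, no filter, a mean of at least 1 CPM, a threshold of 0.01, CONV-R libraries of code number 10 or 9 alone, hepatocyte, cholangiocyte or neutrophil and monocyte markers as covariate, and leaving out each library. Leaving out CONV-R 1 and 7 together and scaling by the pan-endothelial markers were added after the data were seen.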

Additional observations from a re-analysis of the deposited data

Results flagged for a closer look

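Single libraries stood far from the rest of their group for 13 values, by Dixon's criterion. Chance marks about 1 in 20 groups, and over all 13915 genes tested 7.48% were marked in GF and 11.6% in CONV-R libraries, with CONV-R 1 the far library for 1019 genes. Among the Notch genes, Notch2 was high in CONV-R 1 at 136.1 CPM, Notch4 was high in GF 9 at 397.2 CPM and Jag2 was high in GF 9 at 8.216 CPM. GF 9 had the highest pan-endothelial sum, 12407 CPM. In the wider pathway, Neurl3 was high in GF 10 (207.3 CPM), Ncstn was high in GF 11 (331.6 CPM), Itch was low in GF 12 (128.7 CPM), Numb was low in CONV-R 1 (182.8 CPM) and Mfng was low in CONV-R 7 (36.73 CPM). Among the genes with patterns closest to those of the Notch genes, Camsap2 (86.12 CPM), Wdr59 (62.76 CPM) and Ttll7 (45.62 CPM) were low and Fgd3 (43.04 CPM) was high in CONV-R 1, and Arl4d was low in CONV-R 7 (38.13 CPM).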

How the results depend on the processing

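Over 26 alternatives, the stricter threshold aside, 211 of the 260 log2 fold changes of the 10 genes stayed on the same side of 0 and of the threshold, 31 lost the call and 18 changed sign. The cause of these changes was not tested. The main counts were 4 of the 10 genes higher and 1 lower in GF, 15 and 4 of the other pathway genes, and 1593 and 1764 of all genes. Notch2 was the gene behind the count of lower genes, which was 0 with limma-voom (-0.43, adjusted p = 0.0963), with no filter (adjusted p = 0.0539), at a threshold of 0.01, with code number 10 alone, with any of the 3 covariates and without CONV-R 1 and 7 together. DESeq2 called 4 higher and 1 lower. With library totals, which moved the median of all genes to -0.11, 3 were higher, and 9 other pathway genes and 2773 of all genes were lower and 971 higher. At a threshold of 0.01, 7 other pathway genes were higher and 2 lower, and 629 and 579 of all genes. Against CONV-R of code number 10 the split of all genes was 978 higher and 1000 lower, and against code number 9 it was 2281 and 2526.

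With the hepatocyte covariate 1 of the 10 genes, 2 other pathway genes and 265 genes in all were higher, and 0, 0 and 208 lower. With the cholangiocyte covariate these were 2, 4 and 247 higher, and 0, 1 and 146 lower. With the neutrophil and monocyte covariate they were 2, 4 and 300 higher, and 0, 1 and 171 lower. With pan-endothelial scaling 2, 4 and 373 were higher and 1, 4 and 2299 lower.

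Values that changed sign with the hepatocyte covariate were Notch2 at 0.20, Dll4 at -0.15, Hes1 at -0.14, Hey1 at -0.30, Adam10 at -7.5e-04, Rbpj at -0.059, Rfng at 0.028, Celf2 at 0.37, Fgd3 at 0.30 and E2f2 at 0.24. With the neutrophil and monocyte covariate they were Hey1 at -0.26 and Jag2 at -0.056, and with limma-voom Hey1 at -0.033. With pan-endothelial scaling they were Hes1 at -0.19, Hey1 at -0.15, Jag2 at -0.035, Mfng at -0.12, Rbpj at -0.18, Furin at -0.15 and Psen2 at -0.055. With library totals they were Hes1 at -0.029 and Hey1 at -0.0010. With code number 10 alone Hey1 was at -0.035, and with code number 9 alone Hes1 was at -0.040, Heyl at 0.10 and Notch3 at 0.14. Without CONV-R 1 and 7 Hes1 was at -0.014 and Hey1 at -0.023.

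Leaving out each library in turn gave 3 to 4 of the 10 genes higher and 0 to 1 lower, 10 to 16 other pathway genes higher and 3 to 6 lower, and 1013 to 1765 of all genes higher and 1208 to 1972 lower, the 1013 being without GF 9. Hes1 ran from -0.012 without CONV-R 1 to 0.12 and was at -0.0070 without GF 9. Heyl ran from -0.23 to 0.091, above 0 without CONV-R 2, CONV-R 3 (0.079) or GF 13 (0.050). No paired analysis was possible because the labels give the groups no shared replicate numbers. Depth limits Hey2, Heyl, Notch3, Jag2 and Hey1, which rest on few counts in some libraries.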
